A study of Mus musculus with 24 samples.

Results

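The clustered protocadherins are adhesion proteins of the cell surface, encoded in 3 neighbouring gene clusters named alpha, beta and gamma. Members were the rows of the deposited table whose symbol belongs to these clusters and that held 10 or more expected counts in at least 4 of 24 libraries. Of 55938 genes in the table, 58 had such a symbol and 57 were kept, 14 of them alpha, 21 beta and 22 gamma genes. The members were thus chosen by name and by their counts over all libraries, with no contrast. Pcdhb1 lay just outside the limit, with 10 or more counts in 1 library, and Pcdha1 lay just inside it, with 6 such libraries. The limit was reached in at least 4 libraries of each sorted population by 56 of the kept members, and Pcdha1 reached it only over both populations together. The name Pcdha11 was carried by 2 alpha rows, which were kept apart.

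The libraries came from 12 mouse gliomas, each raised by somatic transfer of the growth factor gene PDGFB into the ventricle of the embryonic telencephalon. Every tumour gave 1 library of sorted fluorescent glioma cells and 1 of the cells around it, which lacked fluorescence; the strain is not given in the sources used here, and no library came from a brain without a tumour. There were 4 tumours without symptoms at 33 to 34 days after transduction (3228A, 3228B, 3228D and 3229B), 4 early symptomatic tumours at 35 to 50 days (3108C, 3108D, 3109D and 3145A) and 4 late symptomatic tumours at 100 to 175 days (3054A, 3054B, 3054C and 3057E). The label of 3057E gives a red fluorescent protein for its glioma cells, where all other tumours have GFP. Stage, day and the code prefix of a tumour cannot be told apart.

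Clustered protocadherins bind the same isoform on a neighbouring cell, and a mixture of isoforms gives a cell an identity that its neighbours can read. In alpha and gamma, each variable first exon has its own promoter and is spliced to constant exons shared by the whole cluster, whereas each beta gene is a single coding exon with no shared tail. In neurons, promoter choice involves DNA methylation, CTCF and cohesin, and a single cell uses a few of the variable isoforms, while the C-type isoforms (Pcdhac1, Pcdhac2, Pcdhgc3, Pcdhgc4 and Pcdhgc5) follow other rules. The family is known mostly for axon and dendrite patterning and for the survival of neurons.

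All 58 genes lie on the plus strand of chromosome 18 (GRCm38), in GENCODE coordinates: alpha at 36930184 to 37187661, beta at 37264938 to 37524479 and gamma at 37661793 to 37841873. Within the exons of the alpha genes, 38.0% to 54.9% of bases were shared with another member, and within those of the gamma genes 27.8% to 66.8%. No base was shared among the beta genes apart from the overlap of Pcdhb21 and Pcdhb22, at most 9.67% of either. Counts of alpha and gamma genes therefore rest on an estimate that splits reads between members. Values that were not whole numbers made up 95.2% of those of the alpha, 82.6% of the beta and 98.3% of the gamma genes, and 22.9% of the values of all genes with any count. Most beta values thus rest on split reads as well.

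Pcdhgc3, a C-type isoform of the gamma cluster known from glia as well as neurons, stood far above all other members. Per kilobase of exon, its mean over the 12 glioma libraries was 169 CPM (counts scaled to library size by TMM), and the next member, Pcdhb9, had 25.4 CPM per kilobase. Pcdhga11 had 21.7, Pcdhb5 14.7, Pcdhga3 13.8 and Pcdhgb1 13.7 CPM per kilobase in glioma cells. In surrounding cells Pcdhgc3 was again first, with 86.5 CPM per kilobase, before Pcdhga11 with 11.6 and Pcdhb9 with 10.4. The alpha genes were low: Pcdhac2, the alpha isoform with the highest level, had 5.21 CPM per kilobase in glioma cells, and Pcdha9 had 2.02.

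Glioma cells and the cells around them were compared first over all stages. Members of the beta cluster were higher in glioma cells throughout, whereas most alpha and gamma genes were not called. In edgeR's quasi-likelihood test, with p-values adjusted over all 18810 genes tested, 29 of 57 members were higher in glioma cells and none was lower. At an unadjusted p under 0.05 there were 32 members, beside 9932 of the 18810 genes. DESeq2 called 31 higher (beside 20.6% of all genes) and 0 lower. Of all genes tested, 22.0% were called higher and 24.2% lower. All 21 beta genes were called, with a median log2 fold change of 1.25 (range 0.39 to 2.24), while 4 of 14 alpha genes were (median 0.87) and 4 of 22 gamma genes (median 0.29). The median over all genes tested was 0.06. Past a fold of 2 in addition, 25 members were called higher, against 4.92% of all genes. The fold changes drawn in chromosomal order show the beta genes as a raised block between the other clusters.

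**Figure D1:**
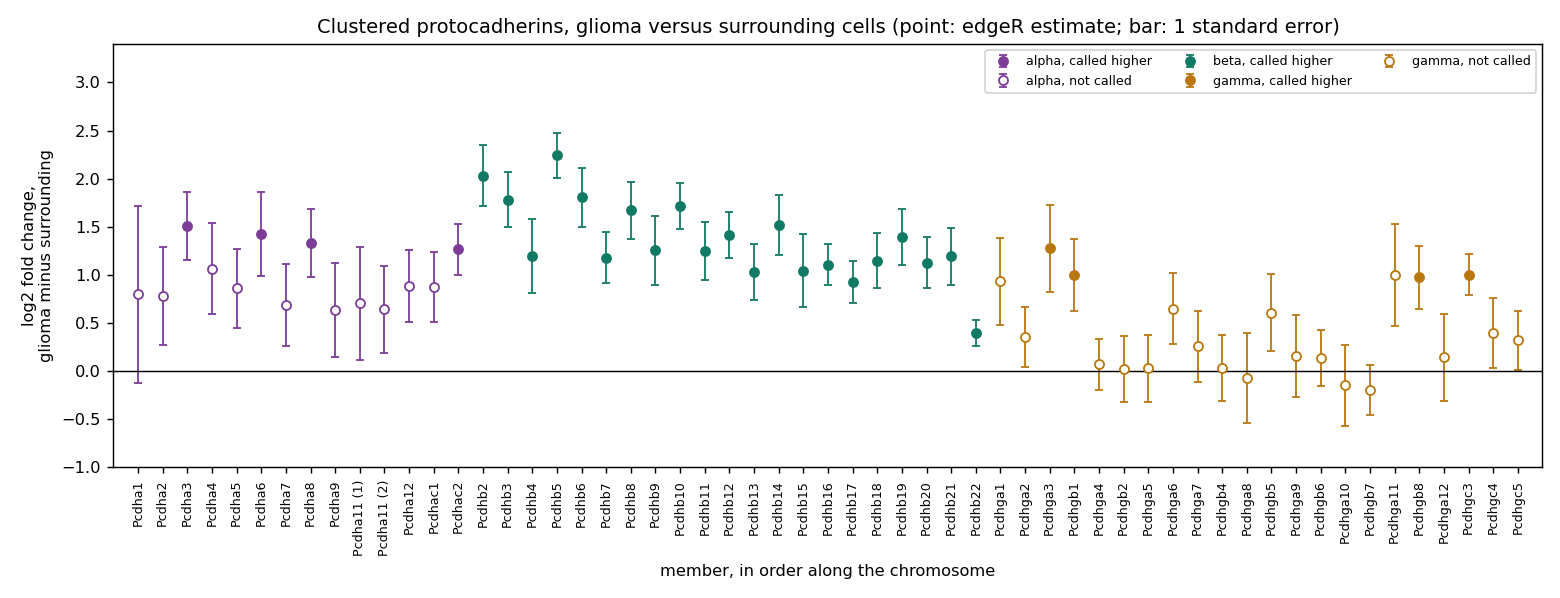
Log2 fold change of each of the 57 kept members between glioma and surrounding cells (y axis, edgeR estimate with 1 standard error), in order along the chromosome (x axis). Filled points were called higher; all 21 beta genes are filled, against 4 alpha and 4 gamma genes, and Pcdha11 (1) and (2) are the 2 rows of that name.

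Summed over a cluster, the same contrast held within tumours. The beta sum was 351 to 676 CPM in glioma cells (median 501) and 48.2 to 370 CPM in surrounding cells (median 176), and it was higher in the glioma library of all 12 tumours, by 1.56 ± 0.86 on the log2 scale (SD, n = 12). The alpha sum was 104.5 to 138 CPM in glioma cells and 6.03 to 96.6 CPM around them, a difference of 1.36 ± 1.12 (SD, n = 12), also in 12 of 12 tumours. The sum of the whole gamma cluster differed by 0.93 ± 0.83 (SD, n = 12), again in 12 of 12 tumours. Its C-type genes, summed, differed by 1.09 ± 0.98 (SD, n = 12), also in 12 of 12. The 19 gamma A and B genes differed least, by 0.66 ± 0.67 (SD, n = 12), and were lower in the glioma library of 3108D and of 3054A. The first of these turns with the pairing, which the sex genes put in doubt for 3108D and 3109D: glioma 3108D had 669 CPM, its surrounding library 676 CPM and that of 3109D 532 CPM.

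**Figure D2:**
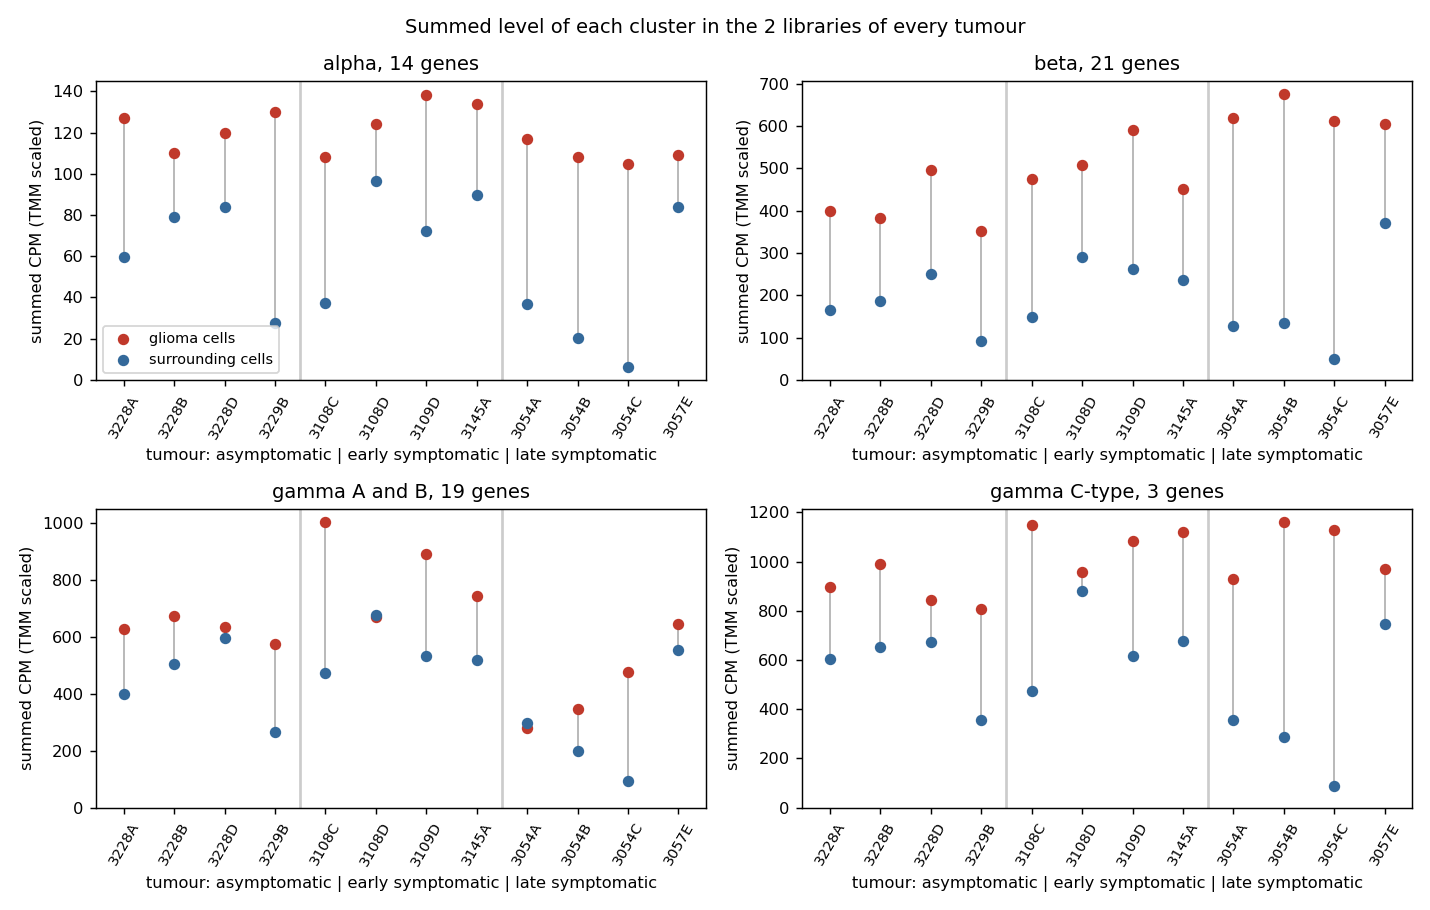
Summed CPM of 4 sets of members (y axes, from 0) in both libraries of each tumour (x axis, grouped by stage), with a line joining the libraries of a tumour. The beta sums of glioma cells lie between 351 CPM in 3229B and 676 CPM in 3054B, and the gamma A and B sums of 3054A, 3054B and 3054C are the lowest among glioma cells.

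The sort sets what the surrounding libraries hold. Summed markers of OPC (oligodendrocyte precursor cells, 10 genes) were 11681 to 19963 CPM in glioma and 725 to 14191 CPM in surrounding libraries. Those of microglia (7 genes) were 49.6 to 1471 CPM in glioma libraries and 1705 to 11130 CPM in surrounding ones, and those of neurons (9 genes) 839 to 1265 and 90.4 to 1438 CPM. The neuron sum was mostly Map2, which held 948 of 1033 CPM in glioma 3054A and 51.9 of 90.4 CPM in surrounding 3054C. The median log2 fold change of the 9 neuron genes was -0.38, so their sum does not speak for most of them. The surrounding library of 3054C had the lowest OPC and neuron sums, the highest microglia sum and the lowest protocadherin sums, and the 2 libraries of 3057E were the closest in microglia markers (1471 and 1705 CPM). Of the marker lists, 9 of 10 OPC and 2 of 9 neuron genes were called higher in glioma cells, and all 7 microglia, 6 of 6 mature oligodendrocyte, 3 of 6 astrocyte, 5 of 5 endothelium, 5 of 5 pericyte and fibroblast and 3 of 3 ependymal genes lower. No marker of these lists was at 0 in all libraries of a group. The part of cell composition in the difference was not tested, and in such bulk libraries fewer cells of a type and less RNA per cell cannot be told apart.

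Among single beta genes, Pcdhb5 had the highest fold. Its level was 28.3, 28.6, 32.5 and 34.9 CPM in the asymptomatic gliomas, 31.4 to 40.3 CPM in the early ones, and 33.0 CPM in 3057E but 102.4, 107 and 108 CPM in 3054A, 3054B and 3054C. Around the tumours it was 3.48 to 17.5 CPM. No glioma library overlapped any surrounding library, which was true of Pcdhb8 and Pcdhb10 too and of 0.728% of all genes tested. The log2 fold change of Pcdhb5 was 2.24 ± 0.23 (SE; adjusted p = 7.5e-08, edgeR).

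Pcdhb2 followed with 12.2 to 57.2 CPM in glioma (median 26.7) and 1.44 to 23.1 CPM in surrounding libraries (median 7.30), a log2 fold change of 2.03 ± 0.31 (SE; adjusted p = 1.68e-05, edgeR). Pcdhb6, Pcdhb3 and Pcdhb10 rose by 1.81, 1.78 and 1.71 on the same scale. Pcdhb14, among the beta genes with the highest CPM, was at 14.4 to 83.2 CPM in glioma and 4.01 to 32.1 CPM around it, and the 2 ranges overlapped. Pcdhb22, at the far end of the cluster and singled out here after its value was seen, had the smallest change, 0.39 ± 0.14 (SE; adjusted p = 0.0223, edgeR). Counted by tumour, with pairs as labelled, 15 of the 22 beta genes in the table were higher in the glioma library of all 12, as were 3 of 5 C-type, 1 of 19 gamma A and B and 0 of 12 variable alpha genes. Of all genes tested, 10.9% were.

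Of the C-type isoforms, Pcdhgc3 and Pcdhac2 were called. Pcdhgc3 was at 745 to 1099 CPM in glioma cells (median 901) and 81.2 to 785 CPM around them (median 523), so that the ranges overlapped, with a log2 fold change of 1.002 ± 0.21 (SE; adjusted p = 6.07e-04, edgeR). It was higher in 12 of 12 tumours. Pcdhac2 was at 22.7 to 41.6 CPM and 2.41 to 23.4 CPM, with a fold change of 1.27 ± 0.26 (SE; adjusted p = 4.93e-04, edgeR). Pcdhac1 was higher in 12 of 12 tumours and was not called (0.87 ± 0.36, SE; adjusted p = 0.0519, edgeR); with DESeq2 and with the tumour as a block it was. Pcdhgc4 and Pcdhgc5, whose values were 0.40 ± 0.36 and 0.32 ± 0.31 (SE), were not called either.

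In the variable part of alpha, Pcdha3, Pcdha6 and Pcdha8 were called, with log2 fold changes of 1.51, 1.42 and 1.33. Pcdha9, which had the highest CPM of the variable alpha genes, was at 2.06 to 22.6 CPM in glioma and 0 to 14.3 CPM in surrounding libraries and was not called (adjusted p = 0.297, edgeR). In gamma, Pcdhga3, Pcdhgb1 and Pcdhgb8 were called, with 1.28, 0.997 and 0.977. Pcdhgb8 is annotated as a polymorphic pseudogene. With Pcdhgc3, 4 of 22 gamma genes were called, which is not above the 22.0% of all genes called higher. Pcdhga11, first among the gamma A and B genes by CPM, had a log2 fold change of 1.001 ± 0.53 (SE; adjusted p = 0.129, edgeR).

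How far these calls rest on the late tumours was read by leaving out 3054A, 3054B and 3054C together, an alternative chosen after the data were seen. It left 12 members called higher, beside 3.24% of all genes, 10 of which were also called in each of the other alternatives: Pcdhb2, Pcdhb3, Pcdhb5, Pcdhb6, Pcdhb8, Pcdhb9, Pcdhb10, Pcdhb14, Pcdhb16 and Pcdhgc3. Pcdha3, Pcdha6, Pcdha8, Pcdhac2, Pcdhgb1 and Pcdhgb8 were no longer called there, with adjusted p of 0.373, 0.443, 0.0619, 0.0608, 0.301 and 0.203. The other members called there were Pcdhb4 and Pcdhga3. With the tumour as a block, 31 members were called higher, beside 28.6% of all genes.

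Within single stages, 7 members were higher in glioma cells at the asymptomatic stage, 2 at the early and 22 at the late symptomatic stage, beside 1.30%, 1.06% and 15.4% of all genes. The members called at the earlier stages were all beta genes, with Pcdhb5 and Pcdhb2 called at every stage. The log2 fold change of Pcdhb5 was 1.89 ± 0.40, 1.70 ± 0.39 and 3.14 ± 0.41 (SE) from the first stage to the last. With the tumour as a block, 13 members were called at the asymptomatic and 4 at the early stage, beside 4.39% and 2.80%. Without 3108D and 3109D, a pair whose sex genes crossed, the counts were 4 and 0. The share of all genes called moved with the setting too, so these and the next counts do not show a change of the members alone. The asymptomatic count was 1 without 3228A or without 3228B, 2 without 3229B and 11 without 3054C. The early count was 1 without 3054A, 3108C, 3108D, 3109D, 3145A or 3228A and 5 without 3054C, and the late count was 14 without 3054A or 3054B. Without 3057E 13, 7 and 28 members were called higher from the first stage to the last, beside 3.12%, 3.14% and 19.5% of all genes. At the late stage 4 members were then lower in glioma cells, Pcdhga10, Pcdhgb2, Pcdhga8 and Pcdhgb7, beside 23.3% of all genes. No member was called for a difference in this contrast between stages. In each of 3 interaction tests edgeR called 0, as of all genes (0.00%), and DESeq2 called 0. At an unadjusted p under 0.05 there were 0, 4 and 2 members, beside 290, 1167 and 1585 of 18810 genes. With 4 libraries per group, the absence of a call does not show that the contrast was alike at all stages. Without 3057E the tests of the late stage against the early and the asymptomatic stage called 4 and 6 members, beside 4.51% and 7.45% of all genes, among them Pcdhb5 and Pcdhb10, with the larger difference at the late stage, and Pcdhgb2, with the opposite sign.

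**Figure D3:**
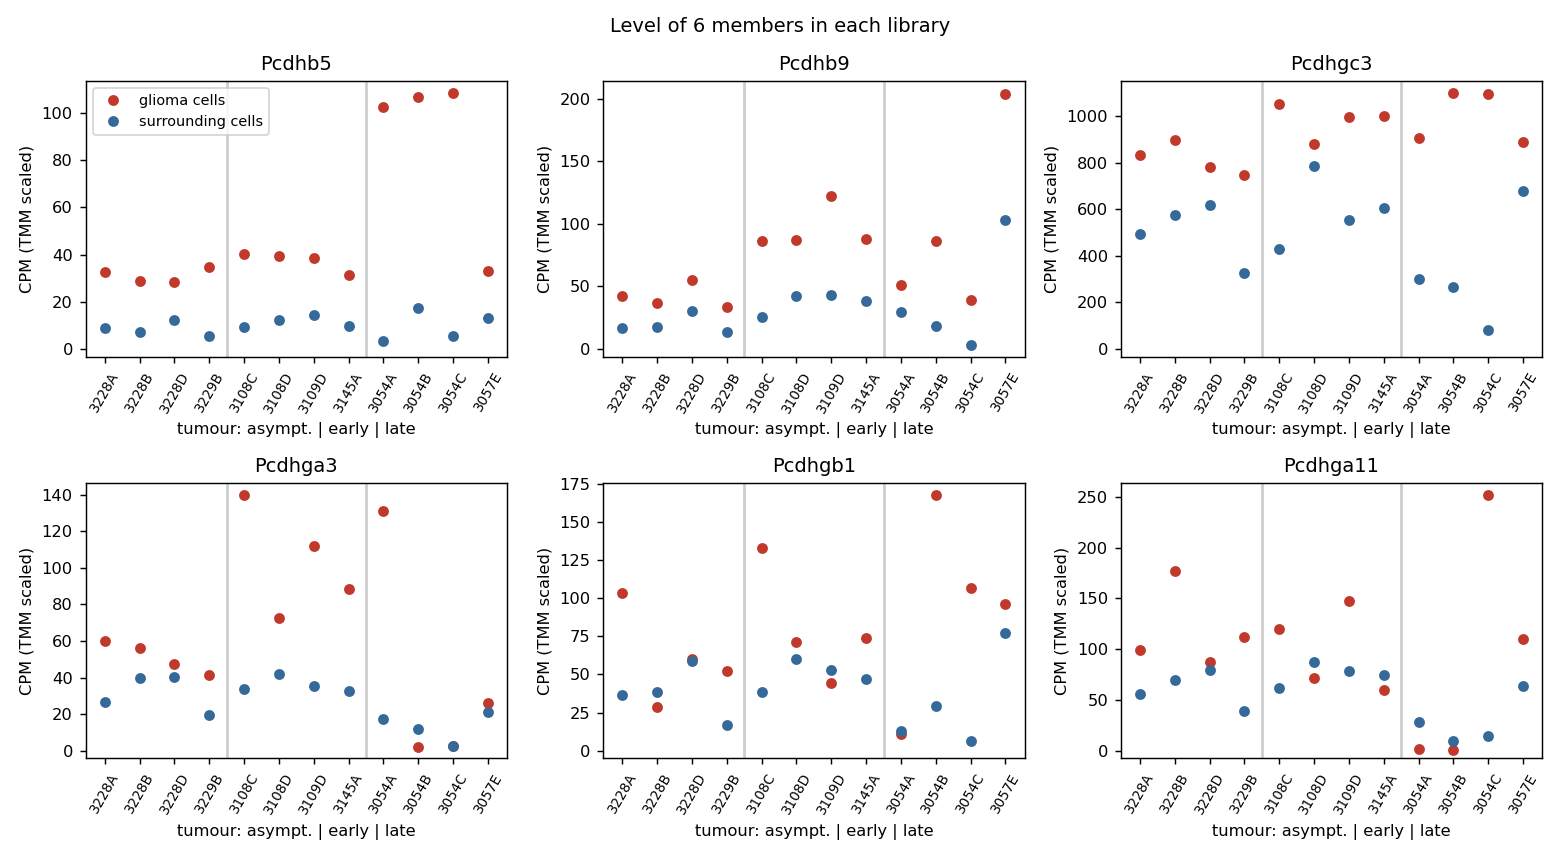
CPM of 6 members (y axes) in glioma and surrounding libraries of each tumour (x axis, grouped by stage). Pcdhb5 is at 102.4 to 108 CPM in 3054A, 3054B and 3054C and at most 40.3 CPM in other gliomas, Pcdhb9 peaks at 204 CPM in 3057E, and Pcdhga3, Pcdhgb1 and Pcdhga11 peak in 3108C, 3054B and 3054C.

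Stages were then compared within glioma cells. No member passed between early symptomatic and asymptomatic tumours, where 0.00% of 16494 genes tested did. An unadjusted p under 0.05 was held by 2 members, beside 810 of 16494 genes, and DESeq2 called 0. Between late and early symptomatic gliomas edgeR called 0 of 56 members tested, beside 0.273% of all genes. There, 22 members had an unadjusted p under 0.05, beside 3243 of 16494 genes. Between late symptomatic and asymptomatic gliomas 1 member passed, Pcdhb3, beside 0.158% of all genes. Pcdhb3 was at 10.3, 14.6, 14.9 and 16.6 CPM in the asymptomatic and 32.7, 35.7, 37.7 and 45.2 CPM in the late gliomas, with no overlap and a log2 fold change of 1.44 ± 0.25 (SE; adjusted p = 0.0456, edgeR). It was not called when all 24 libraries entered 1 fit, without 3108D and 3109D, or without any single tumour except 3145A and 3057E.

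The late gliomas were not alike, and 3057E decided these counts. Without it, 5 members were higher and 17 lower in late than in early gliomas, beside 8.58% and 8.61% of all genes, and 8 were higher and 14 lower than in asymptomatic gliomas, beside 7.19% and 7.5%. The 5 higher members against early gliomas were about the share of all genes, whereas the 17 lower ones were above it. Against early gliomas the lower members included Pcdhga10 and Pcdhga8, with log2 fold changes of -4.15 and -4.27, and the higher ones were Pcdha3 (1.71), Pcdha6 (1.60), Pcdhb5 (1.48), Pcdhb2 (0.87) and Pcdhb10 (0.64). With all 4 late tumours DESeq2 called 5 higher and 5 lower against early gliomas, beside 3.38% and 2.62% of all genes, and 7 higher and 2 lower against asymptomatic ones, beside 2.23% and 1.28%.

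In the late gliomas, spread among tumours was widest for the gamma A and B genes. The SD of log2(CPM + 1) over the 4 late gliomas had a median of 1.61 over the 19 gamma A and B genes, 1.01 over the 12 variable alpha, 0.61 over the 21 beta and 0.72 over the 5 C-type genes, beside 0.36 over all genes tested. In early gliomas the same medians were 0.57, 0.45, 0.24 and 0.26, beside 0.32, and in asymptomatic gliomas 0.47, 0.68, 0.29 and 0.12, beside 0.25.

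In the late gliomas 3054A, 3054B and 3054C, the gamma A and B counts sat on a few genes, and not on the same ones. In 3054A, Pcdhga3 held 46.7% of the gamma A and B counts (Wilson 95% interval 45.0% to 48.4%) and Pcdhga6 21.5%. In 3054B, Pcdhgb1 held 48.2% (46.6% to 49.8%) and Pcdhga1 26.4%. In 3054C, Pcdhga11 held 52.8% (51.5% to 54.0%) and Pcdhgb1 22.3%. In no other glioma did a gene hold more than 26.3%, the share of Pcdhga11 in 3228B, and in no surrounding library more than 15.2%. Intervals cover counting error only, and Pcdhga1 and Pcdhga6 were singled out after their shares were seen.

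**Figure D4:**
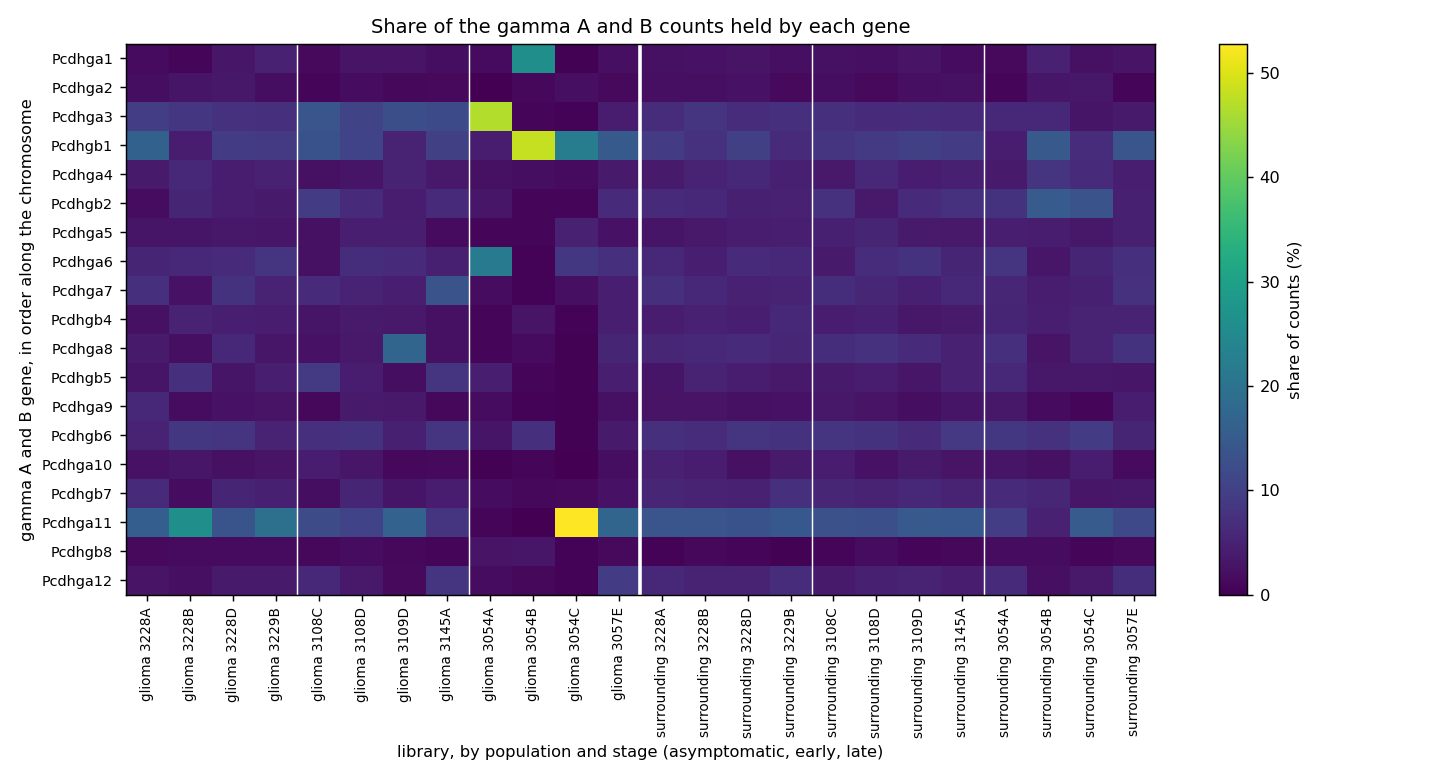
Share of the gamma A and B counts (colour, in percent) held by each of 19 genes (rows, in chromosomal order) in each library (columns, by population and stage). Single bright cells mark Pcdhga3 in glioma 3054A (46.7%), Pcdhgb1 in 3054B (48.2%) and Pcdhga11 in 3054C (52.8%), whereas the surrounding libraries are even.

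The effective number of genes, the exponent of the Shannon entropy of these shares, equals 19 when all gamma A and B genes are used alike. It was 6.55, 5.29 and 4.73 in 3054A, 3054B and 3054C and 14.6 in 3057E. It ranged from 13.2 to 16.6 in the 8 earlier gliomas and from 15.4 to 16.9 in the 12 surrounding libraries, those of 3054A, 3054B and 3054C included (16.9, 15.4 and 15.4). Counted per unshared exonic base, the first 3 values were 6.20, 5.28 and 4.72, and the inverse Simpson index gave 3.67, 3.22 and 2.95. These values describe a pattern that was seen in the data, and no test was made of them.

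**Figure D5:**
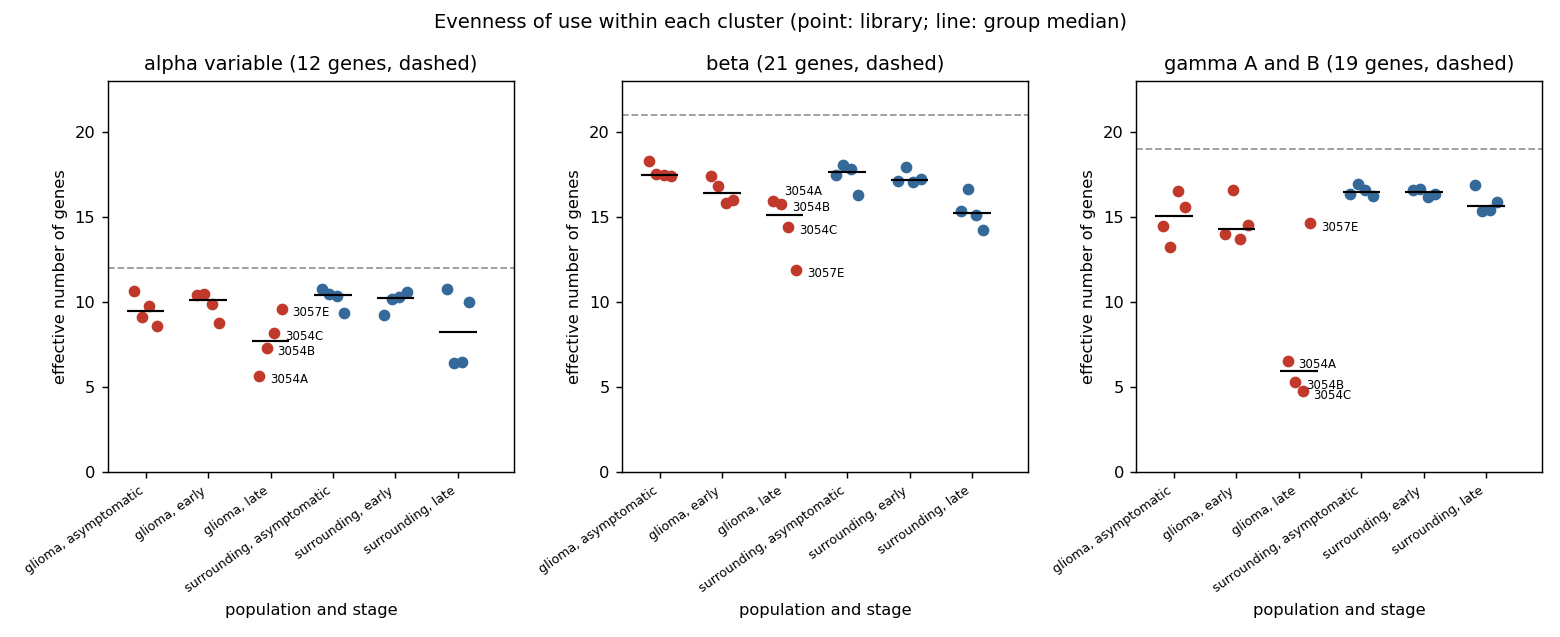
Effective number of genes in use (y axis) among variable alpha, beta and gamma A and B genes, for each library by population and stage (x axis); lines mark group medians and dashed lines the number of genes. Gamma A and B values of 3054A, 3054B and 3054C (4.73 to 6.55) lie apart from all other libraries, which lie at 13.2 or above.

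Most of the gamma A and B genes were also low in these tumours. Of the 19 gamma A and B genes, 16 in 3054A, 16 in 3054B and 14 in 3054C lay below the lowest of the 8 earlier gliomas, beside 18.7%, 16.8% and 18.6% of all genes tested, and in 3057E 3 did, beside 15.8%. Pcdhga11 was at 60.04 to 177 CPM in the earlier gliomas, at 2.12 CPM in 3054A, at 0.716 CPM in 3054B and at 251 CPM in 3054C. Pcdhga3 was at 41.7 to 139.7 CPM in the earlier gliomas, at 131 CPM in 3054A, and at 2.15 and 2.74 CPM in 3054B and 3054C. Pcdhga11 thus lay outside the earlier range in all 3 tumours, on either side, and Pcdhga3 in 2 of them.

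Pcdhgb1 was at 28.4 to 133 CPM in the earlier gliomas and at 11.1, 167 and 106 CPM in 3054A, 3054B and 3054C. Pcdhga10 had no count in 3054C, was at 0.711 and 2.94 CPM in 3054A and 3054B and at 12.1 CPM in 3057E; the earlier gliomas had 9.31 to 41.8 CPM. Genes above the earlier range were few: Pcdhga6 in 3054A (60.4 CPM), Pcdhga1 (91.6 CPM) and Pcdhgb1 in 3054B, and Pcdhga11 in 3054C. The summed gamma A and B level was 281, 347 and 476 CPM in these tumours, 643 CPM in 3057E and 576 to 1004 CPM in the earlier gliomas.

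The C-type genes split in the same tumours. Pcdhgc3 was at 904.5 CPM in 3054A, at 1099 CPM in 3054B and at 1095 CPM in 3054C, the last 2 being above the 745 to 1050 CPM of the earlier gliomas. Pcdhgc4 was at 9.71, 14.1 and 15.1 CPM in the same order, below the 32.2 to 56.1 CPM of the earlier gliomas, and at 45.5 CPM in 3057E. Pcdhac1 was below the earlier range in all 3 (4.19, 1.68 and 0.941 CPM against 4.41 to 8.6 CPM). Pcdhac2 was at 23.6, 32.3 and 22.7 CPM against 25.1 to 41.6 CPM. Pcdhgc5 was at 16.4, 48.0 and 19.7 CPM against 22.8 to 63.7 CPM. Both were below the earlier range in 3054A and 3054C and within it in 3054B.

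Variable alpha genes showed a narrower set too. Their effective number, of 12 at most, was 5.65, 7.28 and 8.15 in 3054A, 3054B and 3054C, 9.58 in 3057E and 8.59 to 10.7 in the earlier gliomas. Pcdha6 led in 3054A with 34.6% of the counts and in 3054B with 29.0%, and Pcdha5, singled out after its value was seen, led in 3054C with 20.5%. Pcdha3 and Pcdha6 were above the earlier range in all 3 tumours. Pcdha6 was at 30.8, 21.5 and 12.3 CPM against 3.22 to 11.48 CPM, and Pcdha3 at 28.3, 13.6 and 11.2 CPM against 1.51 to 7.78 CPM. Pcdha9 was below its earlier range in the same tumours, at 2.28, 2.06 and 5.06 CPM against 8.35 to 22.6 CPM. The surrounding libraries of 3054B and 3054C had alpha values of 6.42 and 6.47, read from 120 and 39.9 counts.

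Pcdha1, next to the count limit, was at 14.5 CPM in 3054C and at most 4.35 CPM in any other library. Its fold change between the populations over all stages changed sign without 3054C (0.80 to -0.61), and it was not called in any setting of that contrast. At the late stage without 3057E it was called higher in glioma cells (4.43 ± 1.75, SE, adjusted p = 0.0463, edgeR).

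Beta genes were in wider use. Their effective number, of 21 at most, was 15.96, 15.8 and 14.4 in 3054A, 3054B and 3054C and 15.8 to 18.3 in the earlier gliomas. The lowest of all was 11.9 in 3057E, where Pcdhb9 held 33.7% of the beta counts. Pcdhb9 was at 204 CPM there and at 103 CPM in the surrounding cells of the same tumour, against 33.3 to 122 CPM and 2.94 to 42.7 CPM in the other gliomas and their surroundings. In 3054A, 3054B and 3054C, 9, 10 and 9 beta genes lay above the range of the 8 earlier gliomas, beside 20.2%, 20.0% and 22.3% of all genes. Below it lay 2, 4 and 5, beside 18.7%, 16.8% and 18.6% of all genes. In 3057E 4 lay above, beside 16.9%, and 5 below, beside 15.8%. Pcdhb2, Pcdhb3, Pcdhb5, Pcdhb7 and Pcdhb10 were above it in each of 3054A, 3054B and 3054C. Pcdhb2, Pcdhb3 and Pcdhb7 were above it in 3057E as well, at 50.4, 45.2 and 21.8 CPM against at most 42.6, 31.1 and 18.2 CPM. The share of all genes above the range in several late gliomas at once is not given here. The beta sum was 619, 676 and 613 CPM in 3054A, 3054B and 3054C, 606 CPM in 3057E and 351 to 591 CPM before.

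In surrounding cells few members passed the same tests. No member passed between early symptomatic and asymptomatic tumours (0.00% of 17616 genes) or between late symptomatic and asymptomatic ones (0.00%) in edgeR's test. An unadjusted p under 0.05 was held by 0 and 5 members, beside 645 and 2822 of 17616 genes. DESeq2 called 0 in the first comparison and 1, Pcdhga10, in the second, lower. The last count stood beside 1.70% of all genes called lower by DESeq2. Between late and early symptomatic stages 1 member was lower, Pcdhga10, beside 0.0681% of all genes, and DESeq2 called 4 lower, beside 1.14%. Its levels were 14.9, 17.2, 19.01 and 20.2 CPM around early and 3.99, 4.897, 8.22 and 8.81 CPM around late tumours, without overlap (-1.50 ± 0.32, SE; adjusted p = 0.0393, edgeR). It was not called without 3108D and 3109D or in 1 fit of all 24 libraries, and of single tumours only 3054A, 3057E, 3228B and 3229B could be left out with Pcdhga10 still called. Without 3057E 21 members were lower around late than around early tumours, beside 9.70% of all genes, and the OPC marker sums around 3054A, 3054B and 3054C (3969, 2702 and 725 CPM) lay below the 6473 to 13199 CPM around early tumours; the part of that difference in the result was not tested.

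Genes that act at the clusters or beside them were read from lists. Of 23 genes of chromatin and cohesin at the clusters, 10 were higher and 2 lower in glioma cells, with a median log2 fold change of 0.21, beside the 22.0% higher, 24.2% lower and median of 0.06 over all genes tested. The cohesin subunits Rad21 and Smc3 rose by 0.76 and 0.77, the cohesin regulator Pds5b by 0.73 and the maintenance DNA methyltransferase Dnmt1 by 0.87. CTCF, whose binding directs promoter choice, was higher by 0.30 ± 0.09 (SE; adjusted p = 0.0119, edgeR). The genes named here are all among the higher ones. At single stages, from the first to the last, 0, 0 and 6 of the list were higher, beside 1.30%, 1.06% and 15.4% of all genes. Lower ones were 0, 0 and 2, beside 2348, 2337 and 3739 of 18810 genes. The summed level of the list was 4109, 3143 and 3089 CPM in gliomas 3054A, 3054B and 3054C, 2157 CPM in 3057E and 2562 to 3290 CPM in the earlier gliomas.

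Of 26 nonclustered protocadherins and related cadherins, 25 were tested, 16 were higher and 2 lower, with a median of 0.89, beside the same shares of all genes. Cdh4 and Cdh2, both classical cadherins, rose by 1.29 and 1.03, while Pcdh12, a protocadherin of endothelium, and Celsr1, a planar polarity cadherin, fell by 4.02 and 2.51 on the log2 scale. Of 17 partners of the cytoplasmic tail, 6 were higher and 6 lower, with a median of 0.06, beside 22.0% higher and 24.2% lower over all genes. The 4 with the smallest p were all lower: Wasf2 and Cyfip1 of the WAVE complex fell by 1.98 and 1.05, the kinase Ptk2b by 4.57 and the sheddase Adam10 by 1.04. The 6 higher ones, named after their values were seen, were Abi2, Nckap1, Wasf1, Ptk2, Fyn and Cyfip2, by 0.69 (Ptk2) to 1.05 (Abi2). At single stages, from the first to the last, 0, 0 and 8 of the nonclustered protocadherins and related cadherins were higher and 1, 2 and 2 lower. Of the partners, 0, 0 and 6 were higher and 4, 4 and 6 lower, beside the shares of all genes given for single stages above. No gene of these lists was called between stages within a population or in an interaction.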

How the data were processed

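The authors deposited expected counts per gene. The submitters' processing notes name STAR 2.7.5c, RSEM 1.3.1 and the mouse build GRCm38. The annotation release, the strand setting and any use of molecular identifiers are not given in the sources used here, so reads of antisense genes cannot be told apart. Per the labels' protocols, libraries were made from polyA RNA of sorted cells. Expected counts were rounded for testing. Library totals were 9.08e+06 to 1.55e+07 counts, and no 2 libraries of a group were copies of each other (lowest chi-square per degree of freedom 22.2).

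The members, lists and tests were chosen with earlier results of these data known. The test over the whole table was that of edgeR 4.0.16, run in R 4.3.3 (TMM scaling, its low-count filter at a minimum of 10, robust quasi-likelihood test, group means as the only terms), with Benjamini-Hochberg adjustment over all genes tested; adjusted p under 0.05 was called. The fit was tested on simulated data. Glioma and surrounding cells were compared in 24 libraries, stages within the 12 libraries of a population, 4 per group. CPM, shares, effective numbers and ranges came from the deposited counts; log2(CPM + 1) was used for spreads. Coordinates and exons came from GENCODE M21, which held 98.6% of the identifiers.

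Named genes were the C-type genes, Pcdhb5, the 3 members of each cluster with the highest mean CPM, up to 5 members per cluster and direction with the largest fold among those called between the populations, members called between stages, those next to the count limit, and up to 4 members of each other list by smallest p. Alternatives were DESeq2 1.42.0, its size factors, no filter, a fold limit, each tumour left out, the tumour as a block and all libraries in 1 fit. The pairing comes from the labels, since both libraries of a code come from 1 animal. Deviations from group means correlated by 0.025 to 0.483 within tumours. Xist and Ddx3y disagreed between the libraries of 3108D and of 3109D in a crossed way, so fits without both and with their surrounding libraries exchanged were run. In 3054C, Ddx3y was at 2.96 CPM in the glioma and 93.2 CPM in the surrounding library, with Xist at 1.06 and 2.02 CPM. The cause of that difference was not tested. Replicates are separate tumours.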

Additional observations from a re-analysis of the deposited data

Results flagged for a closer look

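In groups of 4 libraries, the gap between the extreme library and the next one was measured against the group's range. This was done for the named members, and for the sums and effective numbers of variable alpha, beta, and gamma A and B genes. Of 174 such groups 11 stood out. Chance alone marks about 1 in 20, so a single flag does not show that a tumour differs.

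Several lie in the late tumours, where 3057E parts from 3054A, 3054B and 3054C. Pcdhb5 in glioma 3057E (33.0 CPM) lay below the 102.4 to 108 CPM of the other late gliomas. Pcdhgc4 in glioma 3057E (45.5 CPM) lay above their 9.71 to 15.1 CPM. Pcdhb14 in the surrounding cells of 3057E (32.1 CPM) lay above 4.01 to 6.69 CPM. Pcdha1 in glioma 3054C (14.5 CPM) lay above 0 to 0.742 CPM. Pcdhb1, which is not among the kept members, had 0.226 CPM (2 counts) around 3054B and none around the other late tumours.

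Among early tumours, Pcdhb9 in glioma 3109D (122 CPM) lay above 86.1 to 87.6 CPM. Around 3108C, Pcdhb14 (13.7 CPM) lay below 22.6 to 24.1 CPM and Pcdhb1 (0 CPM) below 0.176 to 0.198 CPM. For Pcdhb1 this is no count against 2 counts in each of the others.

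Among asymptomatic tumours the flags fell on 3228A. Pcdha8 in its glioma cells was at 9.79 CPM against 4.46 to 4.596 CPM. Pcdha1 around it was at 1.497 CPM (17.9 counts) against 0 to 0.219 CPM. The effective number of beta genes in its glioma cells was 18.3 against 17.4 to 17.5.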

How the results depend on the processing

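Between the populations, 29 members were called higher, beside 22.0% of all genes. That share moved with the setting too: 3.24% without tumours 3054A, 3054B and 3054C, 20.6% with DESeq2 and 28.6% with the replicate block. The shares of most other settings are not given here, so the counts do not show a change of the members alone. The count was 12 without tumours 3054A, 3054B and 3054C, 25 past a fold of 2, 23 without 3108D and 3109D, 31 with DESeq2 and 31 with the replicate block (31 also with exchanged pairs), and 25 to 33 without single tumours. In the asymptomatic contrast (7) it was 4 without 3108D and 3109D, 13 with the block, 14 with the block and exchanged libraries, and 1 to 13 without single tumours. In the early contrast (2) it was 1 with no filter, 4 with DESeq2, 0 without 3108D and 3109D, 4 with either block, and 1 to 7 without single tumours; in the late contrast (22) 14 to 32 called either way, the 32 without 3057E being 28 higher and 4 lower. The block changed no call in an interaction.

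Counts between stages cover both directions. Within glioma cells, late against early (0) gave 1 with no filter and 0 to 22 without single tumours. DESeq2 gave 10, beside 3.38% of all genes higher and 2.62% lower. Late against asymptomatic (1) gave 5 with no filter and 9 with DESeq2, the latter beside 2.23% of all genes higher and 1.28% lower. It gave 0 without 3108D and 3109D, 0 in 1 fit of all libraries and 0 to 22 without single tumours. In surrounding cells, late against early (1) gave 4 with DESeq2, all lower, beside 1.14% of all genes called lower. It gave 0 without 3108D and 3109D, 0 in 1 fit and 0 to 21 without single tumours. Late against asymptomatic (0) gave 1 with DESeq2, lower, beside 1.70%, and 0 to 10 without single tumours. The interactions of the late stage gave 0 to 4 against the early and 0 to 6 against the asymptomatic stage; 3057E made each of these maxima.

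Mean log2 differences of cluster sums without single tumours were 1.11 to 1.45 (alpha), 1.37 to 1.64 (beta) and 0.73 to 1.01 (whole gamma cluster). The median effective number in late gliomas was 5.29 to 6.55 without single tumours. Pcdhga10 (-0.15 in the population contrast, -0.72 without 3057E) changed sign to 0.031 without 3054A and to 0.23 without 3054A, 3054B and 3054C; Pcdha1 (0.80, and 1.24 without 3057E) changed to -0.044 with the block, to -0.037 with the block and exchanged libraries, to -0.61 without 3054C and to -2.51 without the 3 tumours. The causes were not tested. Low alpha counts limit what can be read around late tumours.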
